A study of Mus musculus with 21 samples.

Results

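The genes described here are 35 that drive or mark cell division and DNA replication, out of 21883 protein-coding genes in the annotation used. They were chosen by name, and the window of each gene is its RefSeq gene body on the mouse build mm10 with 25 kb added on each side. All 35 were found in the annotation, on 14 chromosomes. By role they are 8 cyclins, kinases and their phosphatase of G1 and S phase, 8 mitotic cyclins, kinases and checkpoint genes, 8 licensing factors and helicase subunits, 3 genes of DNA synthesis, 6 transcription factors and 2 chromosome proteins.

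A cell copies its DNA in S phase and divides in mitosis. Cyclins switch on cyclin-dependent kinases at each step, licensing factors load the MCM helicase on replication origins, and E2F, FOXM1 and B-MYB switch on the genes needed next. Most adult hepatocytes are quiescent, and the liver is known for returning to the cell cycle after injury. C/EBPα maintains the genes of mature hepatocytes and is known to restrain their division. ARID1A is a DNA-binding subunit of SWI/SNF, a complex that moves nucleosomes, and dimethylation of lysine 4 of histone H3 (H3K4me2) marks promoters and enhancers.

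The data are lists of peaks, stretches of the genome where chromatin immunoprecipitation with sequencing (ChIP-seq) found more signal than background, in hepatocytes perfused from livers at postnatal day 90. C/EBPα was mapped in 2 wild-type (WT) and 2 knockout (KO) libraries and H3K4me2 in 3 WT and 3 KO libraries, and ARID1A in 1 library through a V5 tag. WT mice carried floxed Arid1a alleles and no Cre (Arid1a Fl/Fl), KO mice carried the same alleles with a Cre driven by the albumin promoter (Arid1a Fl/Fl; Alb-cre), and the tagged mice are given as V5-Arid1a. The strain of all groups was C57/B6 and 129 mix. The albumin promoter is active in hepatocytes and their precursors. The labels do not say whether libraries of a group came from separate mice, so differences between lists are set only against the spread between these samples. Removal of Arid1a cannot be checked in peak lists, and the genotypes are as given by the labels.

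A C/EBPα list had 17733 or 23646 peaks in WT (lists 1 and 2) and 16178 or 17781 in KO. There were 5726 ARID1A peaks. For H3K4me2 the WT lists ranged from 34849 to 61246 peaks, and the KO lists 1 to 3 had 24908, 54544 and 175797, so KO list 1 and KO list 3 stood apart in opposite directions. The depth of the libraries is unknown, and a gene without a peak is a gene where no peak was called or kept. The tissue was checked by marker genes. All 9 hepatocyte markers (such as Alb and Apob) had an H3K4me2 peak within 1 kb of their start in all 6 lists. Of 6 Kupffer cell and leukocyte markers between 0 and 3 had such a peak, with Clec4f, Csf1r and Cd3e in no list. Of the 4 endothelial markers it was 1, 4 and 1 in the WT lists and 0, 4 and 0 in the KO lists. For the 4 stellate markers it was 2, 3 and 2 in WT and 0, 2 and 1 in KO, with Pdgfrb in none, and for the 3 biliary markers 2, 2 and 2 in WT and 1, 2 and 2 in KO. The 2 neuron markers had 1 or 2. The part of these other cells in the results below was not tested.

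Sequence just upstream of the gene start is shown for 5 genes with a C/EBPα peak within 1 kb of the start in some list and for 3 replication or mitosis genes with none. It was taken from RefSeq (GRCm38.p6, the assembly that mm10 names), runs 5′ to 3′ on the strand of the gene, ends at or just before the start and leaves out bases inside an annotated gene. Capitals mark 4 kinds of motif, searched on both strands: the C/EBP motif TTGCNNAA, the E2F motifs TTTCCCGC, TTTCGCGC, TTTGCCGC and TTTGGCGC, the CCAAT box CCAAT, and the cell cycle homology region (CHR) TTTGAA or TTCGAA. A match is a match of letters and not a measured site.

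Mcm3, Pcna and Cdk4 had a C/EBPα peak over the sequence itself in all 4 lists. E2f2 and E2f3 had one over it in KO list 1 alone. The stretches are chr1:20820313-20820562 (minus strand), chr2:132253181-132253337 (minus strand), chr10:127063285-127063534 (plus strand), chr4:136172024-136172273 (plus strand) and chr13:29986065-29986313 (minus strand).
Mcm3: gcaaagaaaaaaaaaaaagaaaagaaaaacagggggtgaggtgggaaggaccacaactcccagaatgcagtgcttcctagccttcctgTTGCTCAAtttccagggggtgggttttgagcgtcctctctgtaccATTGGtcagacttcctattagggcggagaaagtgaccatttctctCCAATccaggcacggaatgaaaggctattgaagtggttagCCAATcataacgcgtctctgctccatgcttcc
Pcna: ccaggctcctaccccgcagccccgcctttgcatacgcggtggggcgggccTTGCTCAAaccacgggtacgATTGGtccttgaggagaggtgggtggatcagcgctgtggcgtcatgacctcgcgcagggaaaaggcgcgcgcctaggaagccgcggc
Cdk4: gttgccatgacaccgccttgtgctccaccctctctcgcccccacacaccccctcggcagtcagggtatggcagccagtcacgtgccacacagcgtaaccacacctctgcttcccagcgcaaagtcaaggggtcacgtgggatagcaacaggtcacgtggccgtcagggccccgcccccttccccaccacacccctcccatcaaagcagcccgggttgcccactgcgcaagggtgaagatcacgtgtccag
E2f2: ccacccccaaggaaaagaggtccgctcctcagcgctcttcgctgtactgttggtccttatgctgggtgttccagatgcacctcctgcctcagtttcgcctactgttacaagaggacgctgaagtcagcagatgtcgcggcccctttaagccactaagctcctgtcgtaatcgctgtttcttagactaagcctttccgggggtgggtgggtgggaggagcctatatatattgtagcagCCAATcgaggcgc
E2f3: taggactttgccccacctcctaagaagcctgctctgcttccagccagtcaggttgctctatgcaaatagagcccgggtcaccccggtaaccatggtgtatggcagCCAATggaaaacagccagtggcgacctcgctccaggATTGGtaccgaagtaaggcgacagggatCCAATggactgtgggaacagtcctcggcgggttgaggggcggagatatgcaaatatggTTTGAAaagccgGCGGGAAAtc

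Cdk1, Top2a and Mcm6 had no C/EBPα peak within 1 kb of the start in any list. Their stretches are chr10:69352913-69353162 (minus strand), chr11:99024200-99024439 (minus strand) and chr1:128359706-128359955 (minus strand).
Cdk1: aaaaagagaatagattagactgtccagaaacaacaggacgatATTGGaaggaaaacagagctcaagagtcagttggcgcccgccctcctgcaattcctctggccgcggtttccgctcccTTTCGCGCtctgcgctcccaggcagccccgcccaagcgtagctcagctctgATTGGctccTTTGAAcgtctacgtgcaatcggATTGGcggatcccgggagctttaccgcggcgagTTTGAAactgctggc
Top2a: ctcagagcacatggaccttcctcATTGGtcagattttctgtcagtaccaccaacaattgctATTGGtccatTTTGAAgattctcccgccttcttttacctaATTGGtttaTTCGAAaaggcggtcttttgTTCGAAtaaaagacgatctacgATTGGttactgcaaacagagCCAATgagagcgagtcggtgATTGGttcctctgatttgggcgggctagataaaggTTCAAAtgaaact
Mcm6: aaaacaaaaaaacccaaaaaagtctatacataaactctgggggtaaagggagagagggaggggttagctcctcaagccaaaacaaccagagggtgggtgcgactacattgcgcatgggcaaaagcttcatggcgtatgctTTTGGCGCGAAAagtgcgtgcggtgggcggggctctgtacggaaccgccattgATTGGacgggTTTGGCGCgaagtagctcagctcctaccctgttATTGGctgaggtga

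The C/EBP motif TTGCTCAA stood 162 bases before the start of Mcm3 and 107 bases before that of Pcna. These were the 2 matches among 31 start regions of 300 bases (250 before and 50 after the start) from the 28 genes with one in the RefSeq table, or 6.45%, against 10.8% of all 32851 start regions. Cdk4 had a C/EBPα peak at its start in all 4 lists and no match of this motif there. Cdk1 had an E2F match 131 bases before its start, CHR matches at 71 and 15 bases and CCAAT matches at 208, 80 and 48 bases. Top2a had 6 CCAAT and 4 CHR matches, and Mcm6 had 3 E2F matches, of which a pair on opposite strands overlap and read as a single capital run. Over the 31 start regions, 11 held an E2F match (35.5%, against 2.26% of all), 22 a CCAAT match (71.0%, against 37.4%) and 12 a CHR match (38.7%, against 19.2%). Between different motifs there was 1 overlap. The median ratio of observed to expected CpG was 0.883 in these start regions and 0.384 in all, so they were richer in CpG than most, and the part of base composition in the motif counts was not tested.

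C/EBPα lay near most of the 35 genes in both genotypes. At least 1 of the 4 lists had a peak in the window of 29 genes (82.9%), against 58.6% of all protein-coding genes. For 19 genes (54.3%) every list had a peak, against 39.9% of all. Summed over all 35 windows, WT lists 1 and 2 gave 44 and 65 peaks and KO lists 1 and 2 gave 53 and 50, so the KO sums lay between the WT sums. The median difference between the KO and WT means was 0 peaks both for the 29 genes and for all genes with a peak. Ccnb1, Plk1, Mcm2, Mcm4, Mcm6 and E2f1 had no C/EBPα peak in any list.

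**Figure D1:**
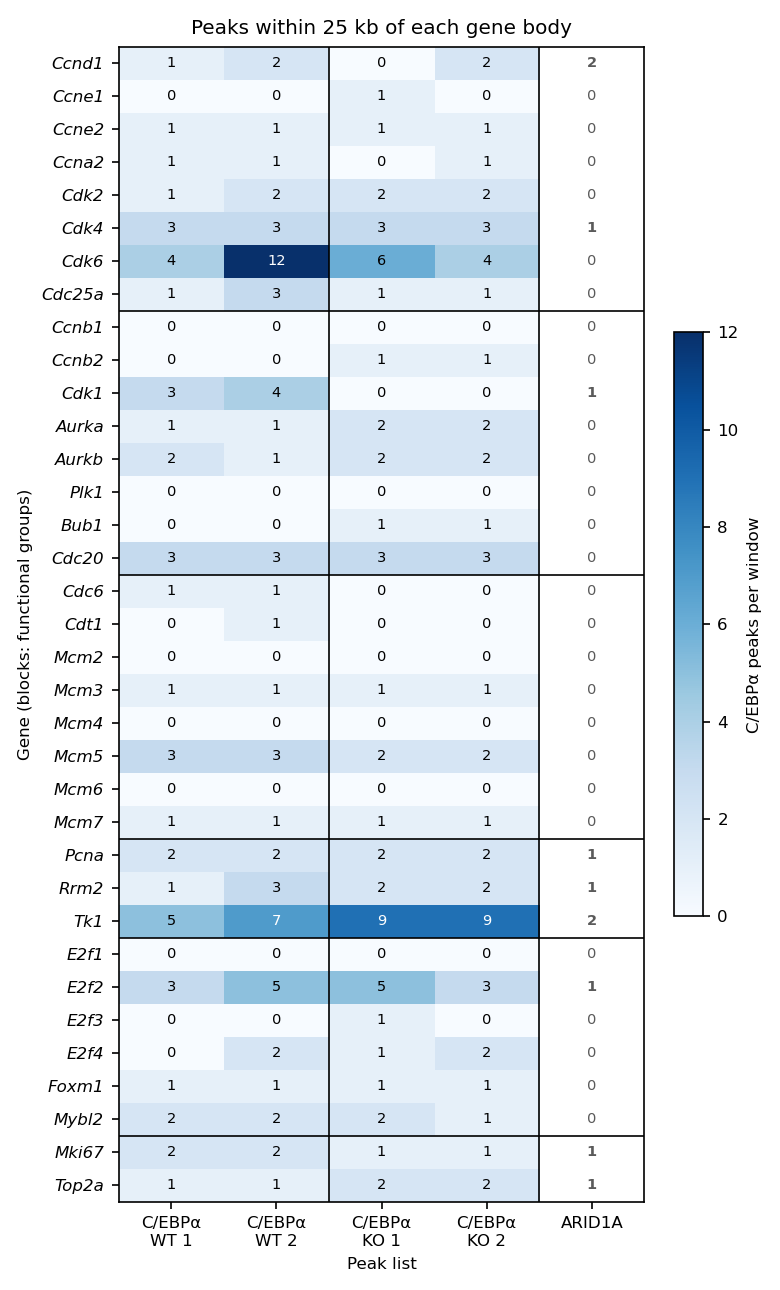
Number of C/EBPα peaks in each of the 2 WT and 2 KO lists (columns) within 25 kb of the body of each gene (a gene per line, in blocks by role), with the number of ARID1A peaks in the last column; darker blue is a higher number of C/EBPα peaks. Cdk1 held 3 and 4 peaks in the WT lists and 0 in both KO lists, while Tk1 held 5 and 7 in WT and 9 in both KO lists.

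The number of C/EBPα peaks was lower in both KO lists than in either WT list for 4 of the 35 genes (11.4%), against 8.76% of all protein-coding genes. The 4 were Cdk1, Cdc6, Mcm5 and Mki67. It was higher in both KO lists for 5 genes (14.3%), against 3.71% of all: Ccnb2, Aurka, Bub1, Tk1 and Top2a. Of the genes with a C/EBPα peak in any list, these are 13.8% with fewer (14.9% over all such genes) and 17.2% with more (6.33%). The other 26 genes had overlapping numbers. For 7 of them the number was the same, and above 0, in all 4 lists: Ccne2, Cdk4, Cdc20, Mcm3, Mcm7, Pcna and Foxm1. These are 7 of 35, against 11.2% of all genes. With 2 lists against 2, the smallest two-sided p that the exact permutation test can give is 0.333, so no difference of this kind can pass 0.05. The 4 lower genes became 8 without WT list 1, which has fewer peaks than WT list 2, and the 5 higher genes became 8 without WT list 2. Leaving out a list cannot undo such a call, so these numbers can only stay or rise.

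To follow single places rather than numbers, overlapping C/EBPα peaks from any of the 4 lists (1 bp or more in common) were joined into regions. The 35 windows held 77 regions, none of them in more than 1 window. A region was called kept when all 4 lists had a peak in it, lost when both WT lists and no KO list did, and gained for the reverse. Of the 77 regions 33 were kept (42.9%), against 42.8% of all 27244 regions of the genome. The 7 lost regions were 9.09%, against 11.7% genome-wide. The 7 gained regions were likewise 9.09%, against 2.75% genome-wide. The other 30 of the 77 regions had another combination of lists. The genome-wide set was not limited to the windows of genes, so the 2 sets are not fully alike. Without WT list 1 the windows held 19 lost regions, and without WT list 2 they held 13 gained ones.

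**Figure D2:**
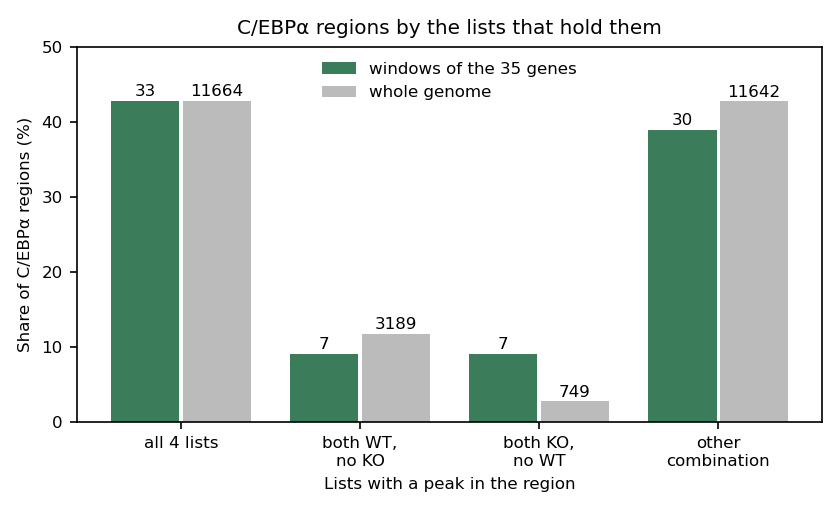
Share of C/EBPα regions (percent, vertical axis) by the lists with a peak in them, for the 77 regions in the windows of the 35 genes (green) and for the 27244 regions of the whole genome (grey), with the number of regions above each bar. Kept regions made up nearly equal shares, 42.9% and 42.8%, and gained regions 9.09% and 2.75%.

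The protein-coding gene nearest to each region was also recorded. The gene of the window itself was the nearest for 5 of the 7 lost regions, for 2 of the 7 gained regions and for 12 of the 33 kept ones. Of the gained regions, those nearest to the gene were at Tk1 and Mcm7. When only peaks nearest to the gene itself were counted, a choice made after seeing the data, 2 genes had more peaks in both KO lists, Tk1 and Mcm7, and 3 had fewer, Cdk1, Cdc6 and Mki67.

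The 8 cyclins and kinases of G1 and S phase all had a C/EBPα peak in some list. None had a lost or a gained region among 25 (9 kept, 16 with another combination). Lost and gained regions were 11.7% and 2.75% of the regions of the genome. Ccnd1, which encodes cyclin D1, the cyclin induced by growth signals, had 1 and 2 peaks in the WT lists and 0 and 2 in the KO lists. Cdk4, a kinase partner of cyclin D1, had 3 in every list. Cdk6, the other kinase partner, had 4 and 12 in WT and 6 and 4 in KO, and its gene body of chr5:3341004-3531008 was the longest of the group. Of its 11 regions 5 had a peak in WT list 2 alone, and both KO values lay within the WT range. Cdk2, the kinase of S phase entry, had 1 and 2 peaks in WT and 2 in both KO lists. Cdc25a, the phosphatase that activates CDK2, had 1 and 3 in WT and 1 in both KO lists. The cyclin E genes Ccne1 and Ccne2 and the cyclin A gene Ccna2 had at most 1 peak per list.

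Cdk1, the kinase that drives entry into mitosis, showed the plainest difference of the 35 genes. Its gene body lies at chr10:69335146-69352912. The WT lists held 3 and 4 C/EBPα peaks in the window and the KO lists none, a mean of 3.5 ± 0.707 (SD, n = 2) against 0 ± 0 (SD, n = 2). All 3 regions found in both WT lists were therefore lost. The first, chr10:69341701-69342385, lay in the gene body 10869 bp from the start and was 475 and 685 bp wide in the 2 WT lists, whose median peak widths were 391 and 381 bp. The second, chr10:69331194-69331587, lay 3559 bp beyond the far end of the gene and held an ARID1A peak at chr10:69331320-69331553. The third, chr10:69326387-69326812, lay 8334 bp beyond it. The remaining region, 14088 bp beyond the gene, had a peak in WT list 2 alone. No other protein-coding gene was nearer to any of these 4 regions. The H3K4me2 lists had peaks on the region in the gene body in 3 WT and 2 KO lists, on the second in 2 WT and 1 KO list, and on the third in none. On the region in the gene body the WT peaks ran from 9977 to 11415, 10010 to 11401 and 10071 to 11207 bp from the start. The peaks of KO lists 1 and 2 were narrower, from 10409 to 10647 and from 10434 to 10888 bp. Fewer peaks in both KO lists was found for Cdk1 under all 13 alternative settings. These include leaving out each list and pairing lists by number, which cannot undo a call.

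**Figure D3:**
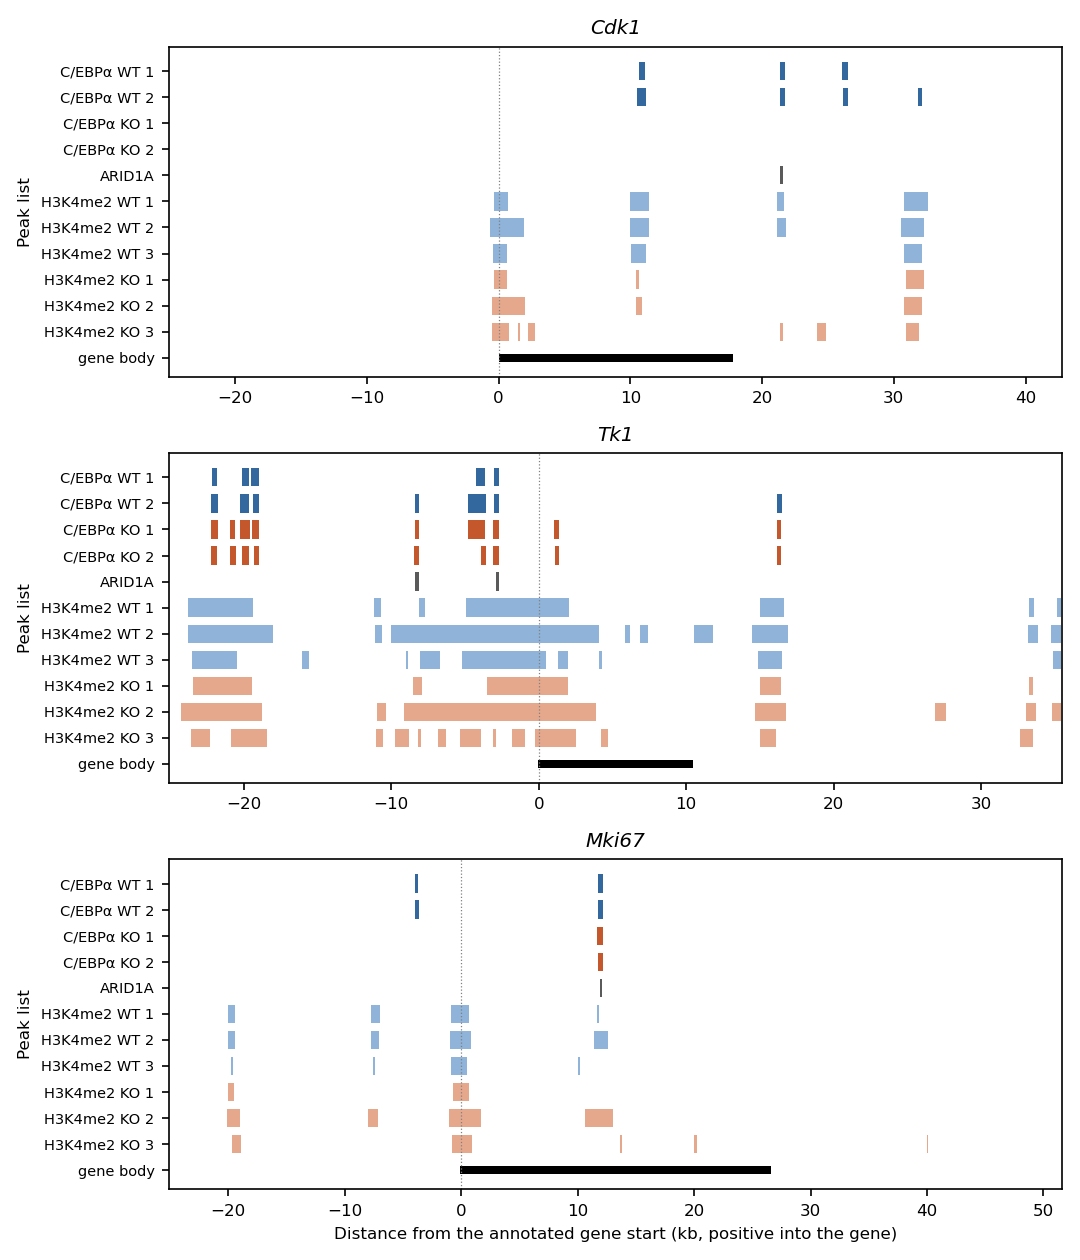
Peaks around Cdk1, Tk1 and Mki67 in all 11 lists (lines; dark blue, C/EBPα WT; dark orange, C/EBPα KO; grey, ARID1A; light blue, H3K4me2 WT; light orange, H3K4me2 KO), with the distance from the annotated gene start in kb on the horizontal axis and the gene body as a black bar. The 3 regions of Cdk1 shared by the WT lists have no KO peak, Tk1 has KO peaks at 2 places without a WT peak, and Mki67 lost the peak upstream of its start and kept the peak in its body.

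A further 3 mitotic genes had more peaks in both KO lists. Aurka, the mitotic kinase Aurora A, had 1 peak in both WT lists and 2 in both KO lists. Its gained region, chr2:172349716-172350099, lay within the neighbouring gene Fam210b, 6091 bp from Aurka, beside a kept region in the same gene. Bub1, a kinase of the spindle checkpoint, had 0 peaks in both WT lists and 1 in both KO lists. The gained region, chr2:127845290-127845708, lay in Acoxl, 13431 bp from Bub1, and no H3K4me2 list had a peak on it. Ccnb2, the gene of cyclin B2, had likewise 0 against 1. Its region, chr9:70446478-70446842, lay in Rnf111 at 24924 bp, at the very edge of the window, and was out of it when the middle of the peak was required to lie inside.

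For the rest of this group the numbers did not separate the genotypes. Aurkb, the kinase of the chromosomal passenger complex, had 2 and 1 peaks in WT and 2 in both KO lists. Cdc20, an activator of the anaphase-promoting complex, had 3 in every list, all in kept regions that lay in neighbouring genes. Ccnb1 and Plk1, cyclin B1 and a kinase of mitotic entry, had none.

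In the licensing and helicase group 5 of 8 genes had a C/EBPα peak, against 58.6% of all genes. Of its 8 regions 3 were lost, against 11.7% of the regions of the genome. Cdc6, which loads the helicase on origins, had 1 peak in both WT lists and none in the KO lists. The lost region, chr11:98918367-98918692, lay in the gene body 10378 bp from the start, with WT peaks of 289 and 326 bp. Mcm5, a helicase subunit, had 3 peaks in both WT lists and 2 in both KO lists. The region it lost, chr8:75102919-75103424, lay 6338 bp upstream of the Mcm5 start and 2326 bp from Hmox1, the haem oxygenase gene, which was nearer. H3K4me2 peaks covered that region in 2 WT lists and no KO list, and covered the 2 kept regions of the window in all 6 lists.

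Mcm7, another helicase subunit, had 1 peak in every list but at different places. The WT peaks lay at chr5:138154359-138154823 in the gene Zfp113, 9760 bp from Mcm7, and were 461 and 448 bp wide. The KO peaks lay at chr5:138170862-138171309, 181 bp from a start of Mcm7, and were 304 and 407 bp wide. H3K4me2 peaks covered both places in all 6 lists. Mcm7 was thus the 1 gene of the 35 (2.86%) with a C/EBPα peak at the start in both KO lists and no WT list, against 1.34% of all genes. No gene of the 35 had the reverse. Mcm3 had 1 kept region at its start, Cdt1, a licensing factor, had a peak in WT list 2 alone, and Mcm2, Mcm4 and Mcm6 had none.

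The 3 genes of DNA synthesis had 14 regions, of which 8 were kept and 2 gained, against 42.8% and 2.75% of the regions of the genome. Tk1, thymidine kinase, which makes a DNA precursor in S phase, had 5 and 7 peaks in WT and 9 in both KO lists, a mean of 6 ± 1.41 against 9 ± 0 (SD, n = 2 each). Its window is gene-dense. Of the gained regions, chr11:117824630-117824951 lay within the gene 1224 bp from the start, and chr11:117846578-117846989 lay 2248 bp from Birc5, the survivin gene. A further 2 regions had peaks in both KO lists and WT list 2. The 5 kept regions lay in Afmid or near Birc5. More peaks in both KO lists was found for Tk1 under 12 of 13 alternative settings, the exception being a count of only peaks that reached the median width of 395 bp. Here too, the settings that leave out or pair lists could not undo the call. Pcna, the sliding clamp of DNA polymerases, had 2 peaks in every list, and Rrm2, a subunit of ribonucleotide reductase, had 1 and 3 in WT and 2 in both KO lists.

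The 6 transcription factors had 13 regions, 6 of them kept and none lost or gained (42.8%, 11.7% and 2.75% of the regions of the genome). E2f2, an activator of S phase genes, had 3 and 5 peaks in the WT lists and 5 and 3 in the KO lists. E2f4, which acts mainly as a repressor in resting cells, had 0 and 2 in WT and 1 and 2 in KO. Mybl2, the gene of B-MYB, had 2, 2, 2 and 1 in the same order, and Foxm1, a factor of mitotic gene expression, had 1 in every list. E2f3 had a single peak, in KO list 1, and E2f1 had none.

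The chromosome proteins went in opposite directions. Mki67, which encodes the proliferation marker Ki-67, had 2 peaks in both WT lists and 1 in both KO lists. Its lost region, chr7:135720029-135720364, lay 3817 bp upstream of the start, with WT peaks of 320 and 330 bp and no H3K4me2 peak in any list. The kept region lay in the gene body at chr7:135704168-135704679 and held an ARID1A peak. Top2a, topoisomerase II alpha, had 1 peak in both WT lists and 2 in both KO lists. Both of its regions lay in the neighbouring gene Igfbp4, the kept one 20283 bp and the gained one, chr11:99047061-99047393, 23038 bp upstream of the Top2a start.

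At the gene start itself, C/EBPα was present in all 4 lists for Cdk4, Mcm3, Pcna and E2f2, which is 11.4% of the 35 genes against 9.25% of all. The Mcm3 peaks were 433 and 467 bp wide in WT and 502 and 384 bp in KO. The Pcna peaks were 304 and 368 bp in WT and 365 and 389 bp in KO, and those of Cdk4 were 550 and 574 bp in WT and 399 and 632 bp in KO. The width ranges of the genotypes overlapped for all 3. E2f2 has a pair of annotated starts: its shared region lay at chr4:136179466-136179977, before the second, and a peak over the first was found in KO list 1 alone. Besides Mcm7, a peak at the start was also found for E2f3 in KO list 1. Ccnd1 and E2f4 had a peak in WT list 2 at an annotated end of the gene. Their strand was not known here, so that end may not be the start, and the Ccnd1 peak lay in the neighbouring gene LTO1.

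ARID1A had 11 peaks in the windows of 9 genes (25.7%), against 20.2% of all genes. The 9 were Ccnd1 and Cdk4, Cdk1, Pcna, Rrm2 and Tk1, E2f2, and Mki67 and Top2a. Ccnd1 and Tk1 had 2 peaks each and the others 1. A C/EBPα region lay under 10 of the 11 peaks: 6 of these regions were kept, 1 was lost (at Cdk1) and 3 had another combination of lists. Over the whole ARID1A list, 82.9% of the 5726 peaks lay on a C/EBPα region, 63.7% on a kept, 3.39% on a lost, 14.7% on another and 1.05% on a gained one. No gained region in the 35 windows held an ARID1A peak, and 60 of the 749 gained regions of the genome (8.01%) did. There is 1 ARID1A library, so these counts have no replicate check.

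Position and width set the ARID1A peaks apart from each other. Only those of Mki67 and Ccnd1 included a peak inside the gene body. The widest, at 417 bp, lay in Igfbp4 in the window of Top2a and ranked at the 83.7 percentile of width in its list. The peaks of Mki67 (218 bp, 11.9 percentile) and Cdk1 (234 bp, 18.9 percentile) were among the narrower ones. At Rrm2 the peak lay 2570 bp upstream of the start on a kept C/EBPα region. The narrowest, 198 bp wide in the body of Ccnd1 at chr7:144933427-144933624, was the 1 without a C/EBPα region. The other Ccnd1 peak, at chr7:144929589-144929814, lay 117 bp from an annotated end of the gene, on a region with a C/EBPα peak in WT list 2 alone.

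H3K4me2 lay at the start of nearly all 35 genes in both genotypes. A peak within 1 kb of the start was present in all 6 lists for 34 genes (97.1%), against 52.3% of all genes. The exception was Ccnb2, which had a peak at the start in 2 WT and all 3 KO lists and none in WT list 3. The 6 genes without C/EBPα in the window were all among the 34. With only the strongest peaks of each list, in equal numbers, the 34 genes came to 25, and the share over all genes was not computed for that.

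The amount of the mark was measured as the number of peaks and as the length they cover in the window. The number of peaks was higher in all 3 KO lists than in any WT list for 1 gene (2.86%), against 0.58% of all genes. That gene was Mcm4, a helicase subunit, with 1 peak in each WT list and 2, 2 and 5 in the KO lists. Both peaks of KO list 1 lay within the span of the single peak of WT list 1. The covered length of Mcm4 was 2.03, 2.47 and 2.11 kb in WT and 1.13, 3.2 and 3.12 kb in KO. KO list 1 thus had more peaks but less covered length than any WT list. When numbers were scaled per 10000 peaks of the list, Mcm4 lost the call and Mcm3 alone had it. No gene had fewer peaks in all KO lists, against 0.0777% of all. KO list 3, which has the most peaks of all lists, held the highest number alone for 30 of the 35 genes (85.7%), against 79.6% of all genes. Without KO list 3 the number was lower in KO for 2 genes, Cdk4 and Mcm2, and without KO list 1 it was higher for 5: Cdk6, E2f2, Foxm1, Mcm3 and Mcm4. Without WT list 2 it was higher for 2, Cdk2 and Mcm4. The same counts over all genes with a list left out were not made, so these have no background.

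The covered length separated the genotypes for none of the 35 genes. Less covered length in all KO lists than in any WT list was found for 0 of 35, against 0.649% of all genes, and more for 0 of 35, against 0.0457%. With 3 lists against 3 the smallest two-sided p of the exact permutation test is 0.1. The median log2 ratio of the KO mean to the WT mean was 0.06 over the 35 genes and 0.01 over all genes with cover in every list. KO list 1 had the lowest covered length for 28 of the 35 genes (80.0%) and for 88.3% of the 15183 genes with cover in all 6 lists. It covers 28.0 Mb of the genome, the least of the 6 lists.

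**Figure D4:**
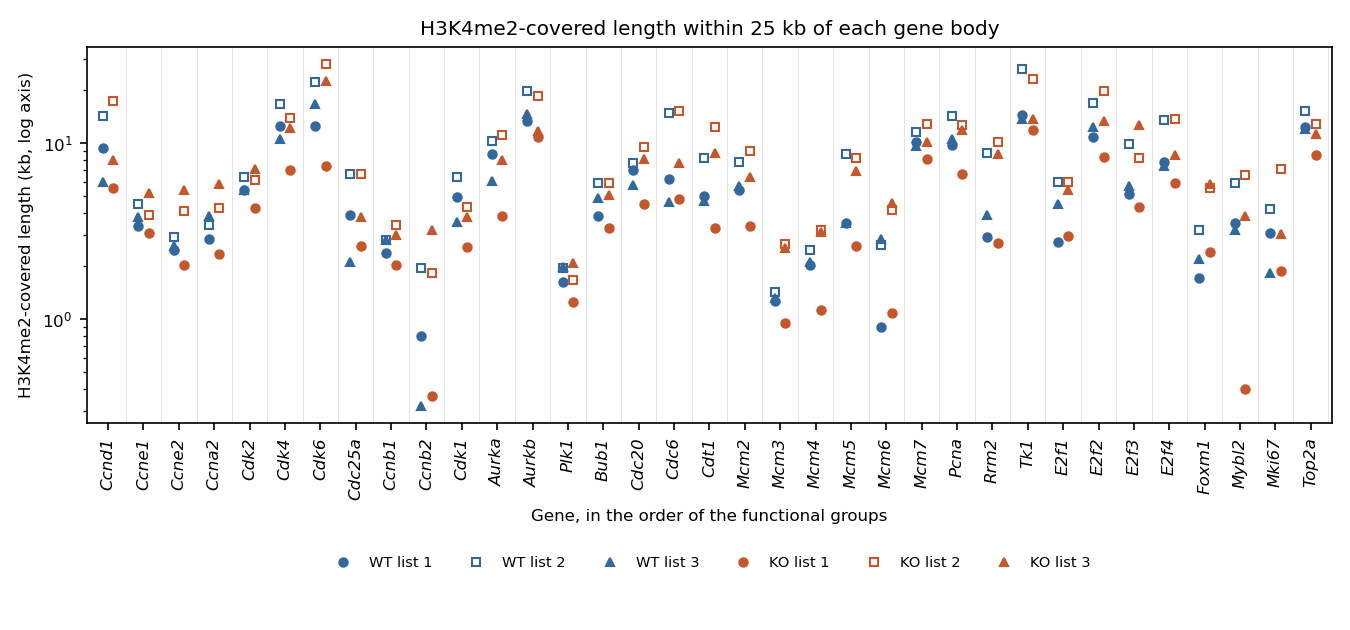
Length covered by H3K4me2 peaks (kb, log axis) within 25 kb of the body of each of the 35 genes, in the 3 WT lists (blue) and the 3 KO lists (orange), with a marker shape for each list number. KO list 1 (orange circles) is the lowest for 28 genes, and for every gene the KO and WT values overlap.

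Lists with the same number in both genotypes deviated together, so the difference was also taken within each pair of numbers. For WT list 3 the correlation was higher with KO list 1 (0.350) than with KO list 3 (0.226), so that pair is uncertain. Under this replicate block 3 of the 35 genes had less covered length in KO in every pair, Aurkb, Tk1 and Top2a. That share is close to the 8.68% found for all genes, so the 35 genes did not stand out here. Aurkb had 13.4, 19.7 and 14.6 kb in WT and 10.8, 18.5 and 11.8 kb in KO. Tk1 had 14.5, 26.4 and 13.7 kb in WT and 11.8, 23.2 and 13.6 kb in KO. Its values in WT list 3 and KO list 3, the uncertain pair, were nearly equal (13.733 and 13.646 kb). Top2a had 12.2, 15.2 and 11.99 kb in WT and 8.53, 12.9 and 11.2 kb in KO. In each of these the values of the genotypes overlapped when the pairing was ignored, and the 3 genes were also lower in KO when KO list 2 was left out.

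The block gave more covered length in every pair for 3 other genes, E2f1, Foxm1 and Mcm6, against 2.01% of all. Foxm1 had 1.71, 3.21 and 2.18 kb in WT and 2.40, 5.56 and 5.80 kb in KO, a log2 ratio of the means of 0.95. Mcm6 had 0.895, 2.64 and 2.82 kb in WT and 1.08, 4.16 and 4.54 kb in KO. E2f1 had 2.74, 5.97 and 4.52 kb in WT and 2.94, 6.001 and 5.37 kb in KO, differences that were small in each pair. More peaks in every pair was found for 2 genes, Foxm1 and Mcm4, against 3.11% of all. Without KO list 1 the covered length was higher in the remaining KO lists than in any WT list for 10 genes, and without WT list 2 for 1, Foxm1. Shares over all genes with a list left out were not computed, so these counts have no background.

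Cdk1, whose C/EBPα peaks were absent from both KO lists, had 4.92, 6.42 and 3.54 kb of H3K4me2 in WT and 2.55, 4.32 and 3.78 kb in KO. The values overlapped, with KO lists 2 and 3 above WT list 3. The log2 ratio of the means was -0.48, the lowest of the 35 genes, and without WT list 3 Cdk1 was lower in all KO lists. Ccnb2 had 0.795, 1.95 and 0.320 kb in WT and 0.365, 1.81 and 3.18 kb in KO, with the KO values spread on both sides of the WT values.

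To compare strength across lists, the −log10 q of the H3K4me2 peak at the start was turned into a percentile rank among the 11452 genes marked there in all 6 lists. This measure was added after the data were seen. The median rank of the 34 genes was 75.8, 73.4 and 77.4 in the WT lists and 56.2, 77.4 and 59.2 in the KO lists, where the median of the 11452 genes is 50.0 by construction. KO lists 1 and 3 were the ones below the WT range. The median width of their start peaks was 1603.5, 1921 and 1350 bp in WT and 1243.5, 2456 and 1551 bp in KO. For the genes marked at the start in all 6 lists it was 2059.5, 2859.5 and 1940.5 bp in WT and 1355, 2897 and 1720.5 bp in KO, the wider value in every list.

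Single genes rarely separated the genotypes by this rank. Mki67 ranked at 83.9, 98.2 and 79.3 in WT and at 54.9, 76.7 and 16.0 in KO, lower in all KO lists, as 4.12% of those 11452 genes were. Mybl2 ranked at 0.751, 4.23 and 12.2 in WT and at 12.3, 24.9 and 50.3 in KO, higher in all KO lists, as 4.24% of those genes were, with WT list 3 and KO list 1 only just apart. Mcm5 ranked at 95.9 or higher in 5 of the 6 lists and at 60.3 in KO list 3. Bub1 spanned almost the whole scale within KO, with ranks of 36.4, 94.8 and 0.611.

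**Figure D5:**
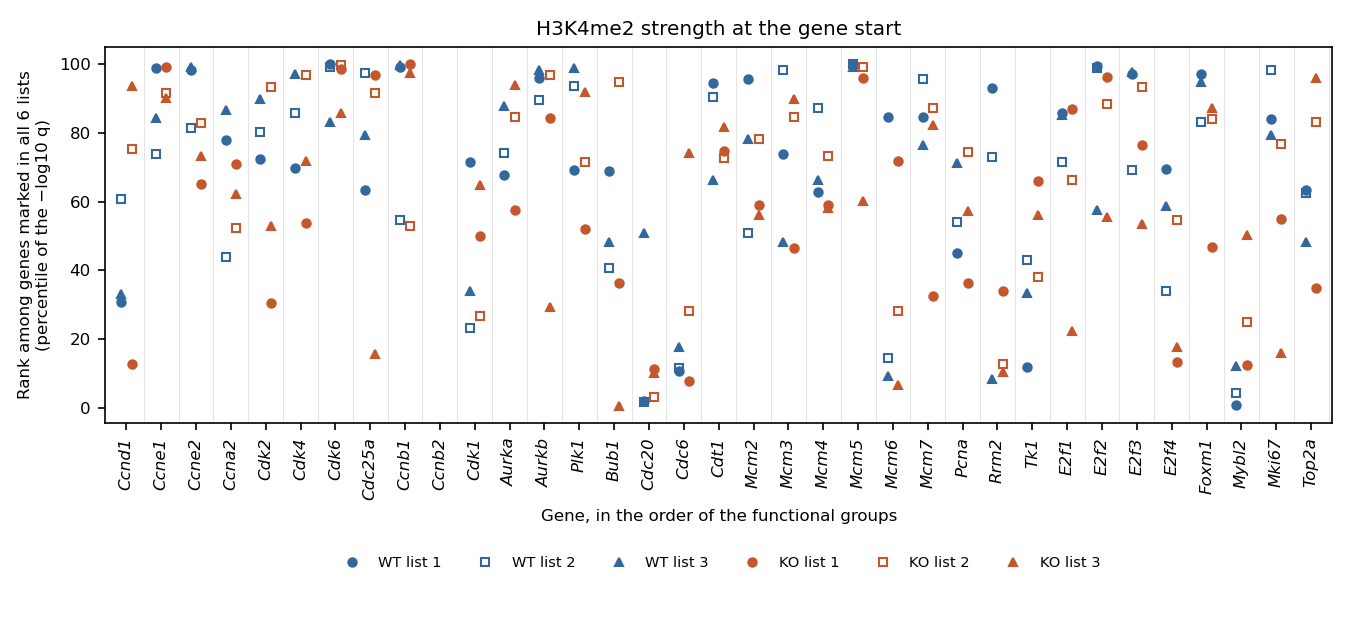
Percentile rank of the −log10 q of the H3K4me2 peak at the gene start, among 11452 genes marked at the start in all 6 lists (vertical axis, 0 lowest and 100 highest), for each gene in the 3 WT lists (blue) and 3 KO lists (orange). Mki67 lies lower and Mybl2 higher in all KO lists, and Ccnb2 has no rank because WT list 3 has no peak at its start.

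A wider list of 79 other cell cycle genes (origin recognition, polymerases, checkpoint and kinetochore genes among them) gave a setting for these counts. Of the 79 genes, 8 had fewer C/EBPα peaks in both KO lists (10.1%, against 8.76% of all genes) and 4 had more (5.06%, against 3.71%). The 8 were Rb1, Ccnf, Cdkn1a, Mcm10, Bub1b, Orc5, Tfdp1 and Ttk, and the 4 were Orc2, Birc5, Cks1b and Pola1. Mcm10, an initiation factor, had 4 peaks in both WT lists and 2 in both KO lists. Cdkn1a, the gene of the cyclin-dependent kinase inhibitor p21, had 2 and 3 in WT and 1 in both KO lists. Birc5 had 5 and 6 in WT and 8 in both KO lists, and its window overlaps that of Tk1, so the same peaks count for both. A C/EBPα peak at the start in both KO lists and no WT list was found for 2 of the 79 (2.53%, against 1.34% of all genes). They were Orc2 and Birc5, and none had the reverse. For Birc5 this rests on the 1 kb limit. Its peaks lay in the kept region chr11:117847774-117848264, 973 bp from the gene, where both WT lists also had a peak. H3K4me2 lay at the start in all 6 lists for 77 of the 79 genes (97.5%, against 52.3% of all), all but Ccnd2 and Tfdp2. An ARID1A peak lay in the window of 14 (17.7%, against 20.2% of all). Less H3K4me2 covered length in all KO lists was found for 3 of the 79, Ccnf, Mcm10 and E2f8 (3.80%, against 0.649% of all genes), and more for none. The number of H3K4me2 peaks was higher in all KO lists for 1, Espl1 (1.27%, against 0.58% of all), and lower for none (0.0777% of all). The H3K4me2 start rank was lower in all KO lists for 5 of the 77 and higher for none. Among the 11452 genes marked at the start in all 6 lists these shares were 4.12% and 4.24%.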

How the data were processed

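ChIP-seq peak lists were used for 11 of the 21 samples, and the 10 input samples were not used here. Per the submitters' processing notes, the authors worked on the build mm10 with MACS2 2.0.10.20131216, HOMER, Picard and Bowtie2 2.2.3, with roles and order not given in the sources used here. The authors deposited the start and end of each peak in bp, a list per library. Per the labels, the H3K4me2 libraries were made with another kit and instrument than the C/EBPα and V5 libraries, so the targets were compared by overlap alone. Strength is absent from the deposited lists of C/EBPα and V5, whose peaks amount to 40.0% to 40.1% of the largest peak number in their names. In the deposited H3K4me2 lists each peak has a score, a fold ratio over background and −log10 values of p and q, which depend on the depth of the library. Of these only the −log10 q was used here, to rank or filter peaks.

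Peaks overlapping a window were counted with Python 3.11.15, pandas 2.3.3 and numpy 2.4.6 for all 21883 protein-coding genes, with no count model. A gene was called when all KO values lay on the same side of all WT values, and the smallest p comes from the exact two-sided permutation test. A start is within 1 kb of a RefSeq start for 28 of the 35 genes, and of either gene end for Ccnd1, Ccne2, Ccna2, Aurkb, Mcm4, Foxm1 and E2f4. The counting was tested on simulated data. A marker gene of the leukocyte list is not reported here. The genes and lists were chosen with earlier results of these data known. Genes named in full are those with a called number or covered length, a lost or gained region, an ARID1A peak or a C/EBPα peak at the start, and others are given by counts. No fold change was fitted. Same-numbered H3K4me2 lists deviated together from their genotype means (correlations of covered length across 20816 genes of 0.573, 0.644 and 0.226). WT list 3 correlated more with KO list 1 (0.350) than with KO list 3, so its pairing by number is uncertain. The replicate block pairs lists by number. Same-numbered C/EBPα lists did not deviate together (0.0257, 2 pairs). Alternatives were the flank, the peak threshold, equal numbers of peaks, the overlap rule, scaling, the replicate block and leaving out each list.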

Additional observations from a re-analysis of the deposited data

How the results depend on the processing

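Fewer C/EBPα peaks in both KO lists (4 genes) came to 2 with equal numbers of the widest peaks or with no flank, and to between 4 and 8 with a list left out. More peaks (5 genes) came to 2 with a 10 kb flank, with no flank or with peaks nearest to the gene (added after seeing the data), to 1 with wide peaks (of at least the median width), and to between 5 and 8 with a list left out. The 1 gene with wide peaks was Cdc20, so none of the 5 genes kept the call there. With no flank or with nearest peaks the 2 genes were Tk1 and Mcm7, and only Tk1 is among the 5. The 33 kept regions came to 19 with a 10 kb flank, 54 with a 50 kb flank, 10 with no flank, 12 for nearest regions and 7 for wide peaks, and to between 33 and 39 with a list left out. The 7 lost regions came to 2 with no flank, 3 for wide peaks and between 7 and 19 with a list left out (19 without WT list 1). The 7 gained came to 3 with a 10 kb flank, 2 with no flank, 2 for nearest regions, 3 for wide peaks and between 8 and 13 with a list left out (13 without WT list 2). C/EBPα at the start in all 4 lists fell from 4 genes to 1 for wide peaks. ARID1A windows came to 16 genes with a 50 kb flank and 2 with no flank. Fewer H3K4me2 peaks (0 genes) came to 1 with equal numbers of the strongest peaks, 2 under a stricter threshold and between 0 and 2 with a list left out. More H3K4me2 peaks (1 gene) came to 0 with a 10 kb flank, no flank, the strongest peaks or the stricter threshold, 2 under the replicate block, and between 1 and 5 with a list left out. Scaled per 10000 peaks of the list it stayed at 1 gene, but that gene was Mcm3 and not Mcm4. Less covered length (0 genes) came to 3 under the replicate block and between 0 and 3 with a list left out, and more (0 genes) to 1 per Mb covered, 3 under the block and between 0 and 10. The replicate block changed no C/EBPα call. For the 9 genes called by C/EBPα number, the call was lost in 28 settings and kept in 89, lost most often for Bub1, Ccnb2 and Top2a (found in 8 of 13) and never for Cdk1. The kept settings include leaving out each list and the replicate block. Neither can undo a call, so those settings add no support. Counts of called genes with a list left out can only stay or rise. The cause of these changes was not tested, and depth is unknown. Apart from the replicate block, shares over all genes were not computed under these alternatives.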
